A study of Homo sapiens with 4 samples.

Results

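The unfolded protein response and the integrated stress response were followed through 36 genes in PK-1 cells, a human pancreatic cancer cell line from a well-differentiated ductal adenocarcinoma. The 36 genes were chosen by symbol from their known roles, with earlier results of these data known. All 36 were found among the 53826 entities of the deposited tables. They were divided into 20 genes linked to the transcription factor ATF4, called the ISR genes here, and 16 genes of protein folding and degradation in the endoplasmic reticulum (ER), called the ER genes here. Between SPRR1A cells and their own control, 0 of the 36 genes were past 2-fold in either model, where 0.62% (stable) and 0.458% (transient) of all entities above 0 were, so that a count of 0 is near the background. In both pairs of libraries, 6 genes, led by ATF3, were more than 2-fold higher in transiently transfected than in stable cells, against 1.74% of all entities above 0.

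RNA sequencing was available for 4 libraries, 1 per condition. Stable SPRR1A cells carried the retroviral vector pMXs with SPRR1A and a FLAG tag, and stable DsRed cells carried pMXs with the red fluorescent protein DsRed. Transient SPRR1A cells were transfected with the plasmid pCAG carrying SPRR1A and FLAG, transient GFP cells with pCAG carrying green fluorescent protein, and RNA was taken 48 h later. The sample labels and the methods name GFP for this control, while a column heading in the study's own tables names DsRed, and the labels were followed. Because each condition had 1 library, no difference has a replicate error, no p-value is given, and every comparison is between libraries. Levels are log2 TPM, where TPM divides the reads of a gene by its length and scales a library to a total of 1000000. A listed 0 means that TPM did not exceed 1, and depth in reads is unknown. SPRR1A, the overexpressed gene, was at 10.93 log2 TPM in stable SPRR1A cells against 0.75 in their control, and at 16.60 in transient SPRR1A cells against 3.56. In the transient SPRR1A library it took 9.90% of the TPM total. The epithelial markers KRT8, KRT18, KRT19, EPCAM and CDH1 lay between 7.03 and 12.94 log2 TPM in all 4 libraries. Of 6 markers of other cells, COL1A2, PTPRC, PECAM1 and CPA1 were listed at 0 throughout, COL1A1 reached 2.62 and PRSS1 reached 1.86.

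Both responses protect cells from an overload of unfolded protein or a lack of amino acids. In the integrated stress response, kinases such as PERK (EIF2AK3), GCN2 (EIF2AK4) and PKR (EIF2AK2) phosphorylate the initiation factor eIF2, which slows translation in general and favours translation of the ATF4 mRNA, so that ATF4 protein can increase without a change in its RNA. ATF4 then induces genes of amino acid supply and further transcription factors such as ATF3 and DDIT3 (CHOP). In the unfolded protein response, the ER sensors PERK, IRE1 (ERN1) and ATF6 act together, and ATF6 and the spliced form of XBP1 induce chaperones such as HSPA5 (BiP). Cells that secrete much protein are known to rely on these ER genes at rest as well.

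The promoter sequences are shown because the 2 gene sets are known for different regulatory elements. RefSeq promoters of GRCh38 patch 14, from 250 bases before to 50 bases after a start site, were held for 35 of the 36 genes (49 promoters). The sequences below are stretches of the promoters that hold a match, with a flank of 20 bases cut short at the start site and the matches in capitals, reversed and complemented where the match is on the other strand. The first set has the ER stress element, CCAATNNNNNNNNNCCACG, which is bound by ATF6 with the factor NF-Y. It was found on either strand in 6 of the 16 ER genes, in 0 of 19 ISR genes and in 0.0916% of all 27305 genes with a promoter. A gene was counted if any of its promoters had a match.
HSPA5 (chr9:125241371-125241429, minus strand): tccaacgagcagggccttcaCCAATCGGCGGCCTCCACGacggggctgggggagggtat
HSP90B1 (chr12:103930196-103930359, plus strand): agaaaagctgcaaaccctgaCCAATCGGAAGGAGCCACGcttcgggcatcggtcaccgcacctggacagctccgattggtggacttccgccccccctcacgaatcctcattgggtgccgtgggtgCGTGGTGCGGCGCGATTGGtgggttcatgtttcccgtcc
XBP1 (chr22:28800583-28800641, minus strand): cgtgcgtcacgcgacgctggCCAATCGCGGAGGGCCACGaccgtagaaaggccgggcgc
PDIA6 (chr2:10812833-10812891, minus strand): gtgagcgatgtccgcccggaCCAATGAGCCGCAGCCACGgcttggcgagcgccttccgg
CALR (chr19:12938364-12938422, plus strand): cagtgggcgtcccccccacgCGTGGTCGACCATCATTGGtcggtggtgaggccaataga
CRELD2 (chr22:49918534-49918592, plus strand): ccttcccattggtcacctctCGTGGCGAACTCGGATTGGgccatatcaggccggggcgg

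The second set has the related ER stress element II, ATTGGNCCACG. It was found in 3 of the 16 ER genes, in 0 of 19 ISR genes and in 0.0696% of all genes with a promoter. In HYOU1 a match of this element overlaps the core TGACGTG, which was in 2.4% of all genes with a promoter and in no other gene of either set. In HERPUD1 the first capitals are an ATF4-type element, read on the other strand, and the second are the ER stress element II.
HERPUD1 (chr16:56931946-56932055, plus strand): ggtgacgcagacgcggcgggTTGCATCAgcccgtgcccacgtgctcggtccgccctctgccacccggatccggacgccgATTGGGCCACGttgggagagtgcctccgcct
HYOU1 (chr11:119057254-119057413, minus strand): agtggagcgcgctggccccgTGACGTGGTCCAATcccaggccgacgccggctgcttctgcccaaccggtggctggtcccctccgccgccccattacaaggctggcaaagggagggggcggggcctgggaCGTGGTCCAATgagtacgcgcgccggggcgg
SDF2L1 (chr22:21642094-21642144, plus strand): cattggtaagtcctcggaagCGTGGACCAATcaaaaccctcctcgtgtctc

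The third set shows ISR genes with the C/EBP-ATF element, TGATGNAA, through which ATF4 acts. It was found in 4 of 19 ISR genes (ATF3, ASNS, CHAC1 and SLC3A2), in 1 of the 16 ER genes (HERPUD1) and in 4.46% of all genes with a promoter. The SLC3A2 match lay after the start site and is not shown.
ATF3 (chr1:212565196-212565243, plus strand): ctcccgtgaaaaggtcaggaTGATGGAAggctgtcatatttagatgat
ASNS (chr7:97872449-97872496, minus strand): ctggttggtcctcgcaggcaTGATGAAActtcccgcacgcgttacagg
CHAC1 (chr15:40953242-40953289, plus strand): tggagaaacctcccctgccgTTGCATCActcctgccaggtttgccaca

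Either kind of ER stress element was thus found in 9 of the 16 ER genes (56.2%), against 44 of the 27305 genes in the promoter table (0.161%). These elements were first described on chaperone promoters, so the count describes the gene set and is no finding on PK-1 cells. A match is a run of letters and not a bound site, and a gene without one was searched in this window alone.

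The 36 genes differed widely in level. In stable DsRed cells the most abundant ISR genes were SLC7A5, a carrier of large neutral amino acids, at a TPM of 848, followed by ATF4 at 552 and SLC3A2, the partner chain of SLC7A5, at 540. The most abundant ER genes were the chaperones HSP90B1 at a TPM of 739 and CALR at 678, and SEC61B, a subunit of the protein translocation channel, at 428. At the low end, ATF3 was at a TPM of 6.22, CTH at 3.48, CBS at 3.41 and VLDLR at 2.82. GDF15, a secreted stress cytokine, was listed at 0 in all 4 libraries, and the other 35 genes were above 0 in all 4. TPM of at least 5 was reached by 32 genes in each stable library and by 34 in each transient library. Summed over the set, the ER genes made up 0.350% of the TPM total in the stable control, 0.368% in stable SPRR1A, 0.414% in transient SPRR1A cells and 0.465% in their GFP control. With SPRR1A left out of the total, the share in transient SPRR1A cells was 0.459%. The ISR genes made up 0.323%, 0.330%, 0.370% and 0.406% in the same order, and 0.411% in transient SPRR1A cells without SPRR1A.

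**Figure D1:**
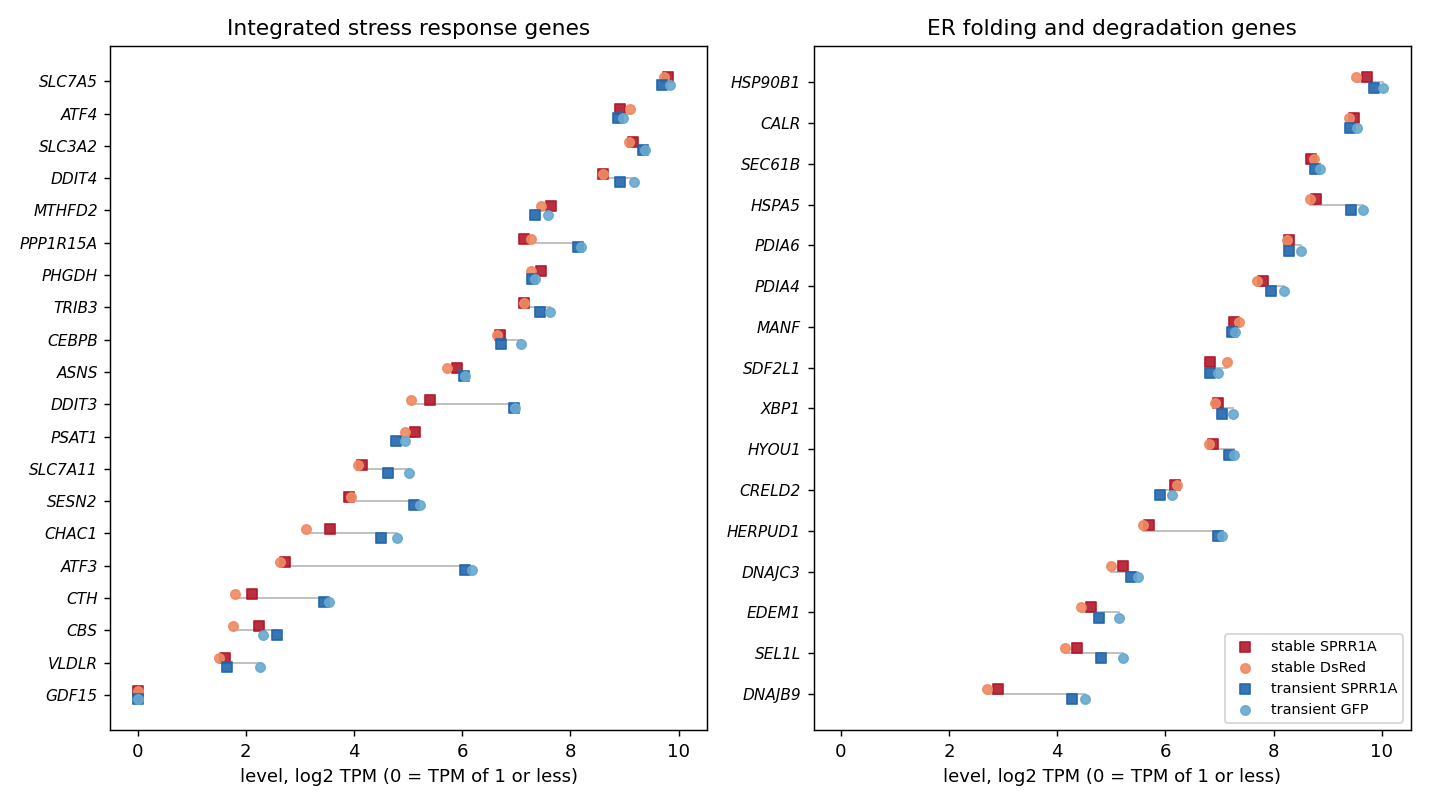
Level of each of the 36 genes in log2 TPM (x axis) in the 4 libraries, 1 point per library, for the ISR genes (left) and the ER genes (right), ordered by the level in stable DsRed cells. Squares are SPRR1A libraries, circles are controls, and grey lines span the 4 values; ATF3 spans from 2.64 to 6.19, while ATF4 stays between 8.88 and 9.11.

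The first comparison asked whether SPRR1A overexpression changed these genes. In the stable model, 0 of the 36 genes were past 2-fold (log2 difference above 1 or below -1), against 0.62% of the 12738 entities above 0 in both libraries, and 0 were past a lower limit of 0.5 log2, against 4.73%. In the transient model, 0 genes were past 2-fold, against 0.458% of 13091 entities, and 1 gene, VLDLR, was past 0.5 log2, against 4.56%. This call was lost, with 0 genes past 0.5 log2, under log2(TPM + 1), a filter at TPM 5, centring on the offset or SPRR1A left out of the TPM total. In both models the members' shares were at or below those of all entities.

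The 2 models had offsets of their own. Over entities at TPM 5 or more in both members of a pair, the median log2 difference was 0.06 for the stable model and -0.18 for the transient one, in which SPRR1A takes 9.90% of the fixed TPM total on one side. ISR genes had a median difference of 0.09 (stable) and -0.13 (transient), and ER genes had 0.10 and -0.19. Relative to the offset of each model, the medians were 0.03 and 0.05 for ISR genes and 0.04 and -0.01 for ER genes. Of the 35 genes above 0, 24 lay above the offset of the stable model, beside 6544 of all 12738 entities, and 19 lay above that of the transient model, beside 6340 of 13091.

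Among the transcription factors, ATF4 was at 8.91 and 9.11 log2 TPM in stable SPRR1A and DsRed cells and at 8.88 and 8.98 in transient SPRR1A and GFP cells. The differences were -0.20 and -0.10, and relative to the offsets ATF4 was lower with SPRR1A in the stable model, at -0.26, and not in the transient model, at 0.08. DDIT3, the pro-apoptotic partner of C/EBP factors, was at 5.41 and 5.05 in stable SPRR1A and DsRed cells and at 6.96 and 6.98 in transient SPRR1A and GFP cells. It was thus higher by 0.36 with SPRR1A in the stable model, where 1018 of the 12738 entities were at least as high, and differed by -0.02 in the transient model. ATF3 differed by 0.09 and -0.13 in the stable and the transient model, CEBPB by 0.05 and -0.36, and XBP1 by 0.06 and -0.21. The spliced and unspliced forms of XBP1 mRNA are not separated in these tables.

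The genes of amino acid synthesis were all slightly higher in stable SPRR1A than in stable DsRed cells. ASNS (asparagine synthetase), PHGDH and PSAT1 (serine synthesis), MTHFD2 (mitochondrial folate cycle), CTH and CBS (cysteine synthesis) had differences from 0.17 to 0.49, and all 6 lay above the offset of 0.06. Of all entities, 6544 of 12738 lay above that offset. In the transient model their differences ran from -0.24 to 0.25. There 4 of 6 lay above the offset of -0.18, beside 6340 of 13091 entities. The largest value in each model was that of CBS, 0.49 and 0.25. CBS has a near-identical copy, CBSL, listed beside it, and reads may have been divided between them. CBS was at 2.25 and 1.77 log2 TPM in stable SPRR1A and DsRed cells and at 2.57 and 2.32 in the transient pair, and CBSL at 2.66 and 2.63 and at 3.13 and 3.17. Summed, the 2 entries were at 3.47 and 3.26 in the stable pair and at 3.88 and 3.81 in the transient pair.

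CHAC1, a glutathione-degrading enzyme, was at 3.55 and 3.12 log2 TPM in stable SPRR1A and DsRed cells, and at 4.49 and 4.80 in transient SPRR1A and GFP cells. Its difference was 0.42 for the stable and -0.31 for the transient model, or 0.36 and -0.12 relative to the offsets, the widest gap between the models among the 36 genes. VLDLR, a lipoprotein receptor, followed with 0.11 and -0.60, at a TPM of 4.78 or less in all 4 libraries. The gaps between models were not tested, since each condition had 1 library.

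For the ER chaperones and their partners the SPRR1A libraries lay close to their controls. HSPA5, the chaperone that holds the 3 sensors inactive, differed by 0.11 and -0.23 in the stable and the transient model, and HSP90B1 by 0.19 and -0.18. CALR, a lectin chaperone, differed by 0.07 and -0.13, and HYOU1, which exchanges nucleotide on HSPA5, by 0.09 and -0.09. The lowest difference in the stable model was that of SDF2L1, a partner of the HSPA5 chaperone complex, at -0.33, with a TPM of 113 against 141 in the control. The lowest in the transient model were those of the degradation genes SEL1L (-0.40) and EDEM1 (-0.39), which feed misfolded glycoproteins to the proteasome. Both were higher in stable SPRR1A cells, by 0.23 and 0.16.

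**Figure D2:**
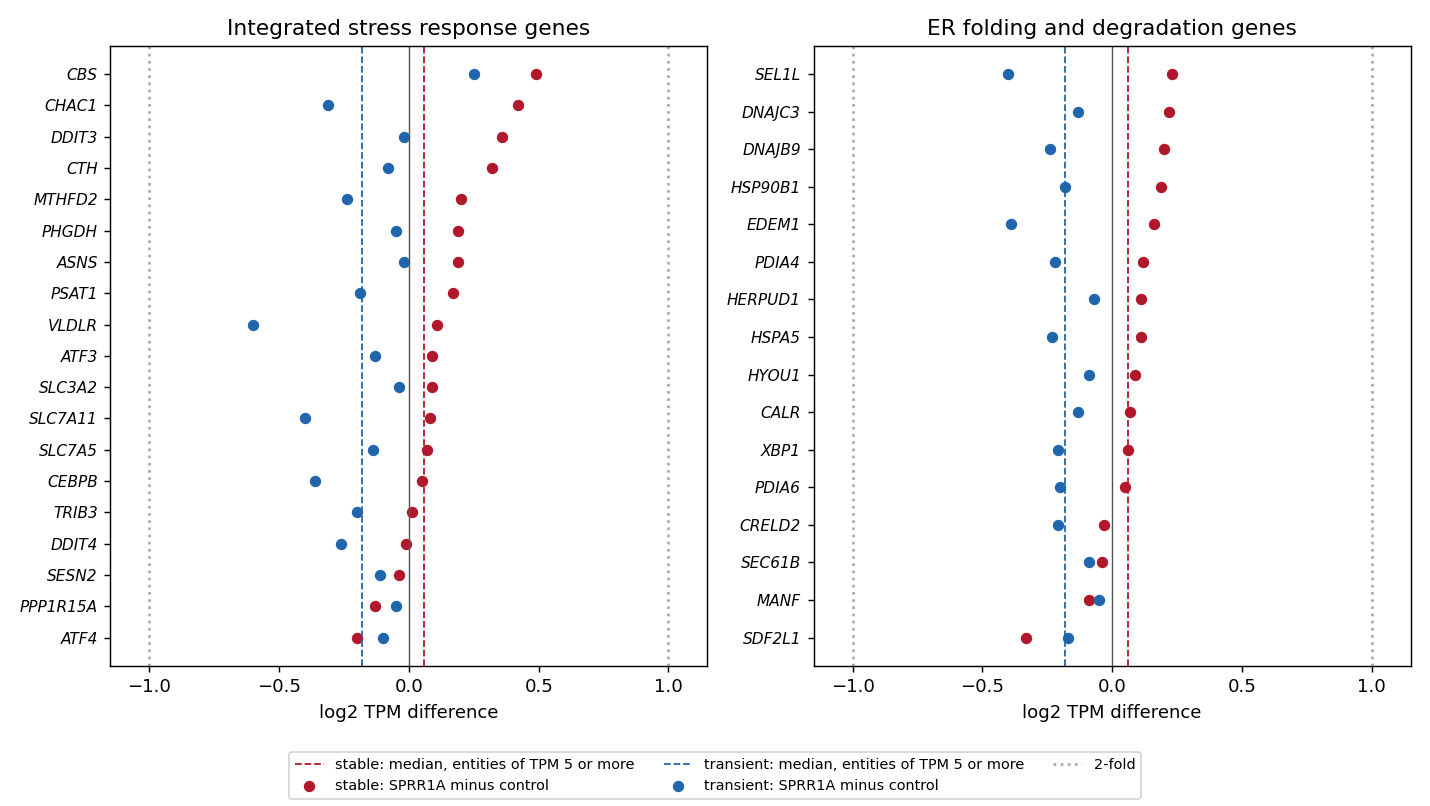
Log2 TPM difference between SPRR1A cells and their control (x axis) for 19 ISR genes (left) and 16 ER genes (right), red for the stable and blue for the transient model, 1 difference of 2 libraries per point. Dashed lines mark the median difference of entities at TPM 5 or more (0.06 and -0.18) and dotted lines mark 2-fold; 0 points lie beyond 2-fold.

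The second comparison set transient against stable cells, once between the controls and once between the SPRR1A libraries, so that no library served in both pairs. Each library had also served in the comparison of its own model above, so the 2 comparisons are not independent. The models differ in vector, transfection, time and culture, and for the controls, by their labels, in the fluorescent protein, and these cannot be told apart. Between the controls, 8 genes were more than 2-fold higher in transient GFP than in stable DsRed cells, against 6.1% of 12760 entities, and 0 were more than 2-fold lower, against 0.541%. Between the SPRR1A libraries, 7 genes were more than 2-fold higher in transient cells, against 2.19% of 12786 entities, and 0 were lower, against 0.774%. The genes past 2-fold in both pairs numbered 6, against 1.74% of the 12541 entities above 0 in all 4 libraries. They were ATF3, DDIT3, SESN2 and CTH among the ISR genes and DNAJB9 and HERPUD1 among the ER genes. Among the 8108 entities with a mean level from 2.5 to 6.5 log2 TPM, the range that holds these 6 genes, 1.54% were past 2-fold in both pairs. This range was set after the values were seen.

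Under the lower limit of 0.5 log2, 15 genes were higher between the controls, against 23.1% of entities, and 0 were lower, against 3.97%. Between the SPRR1A libraries 9 were higher, against 8.62%, and 0 were lower, against 8.2%. Both transient libraries lay above both stable libraries for 25 of the 36 genes, 14 ISR and 11 ER genes, against 33.7% of entities. CRELD2 was the 1 gene with both transient libraries below both stable ones. The median differences of the ISR genes were 0.55 and 0.28, and those of the ER genes 0.48 and 0.13, beside offsets of 0.12 and -0.11 for entities at TPM 5 or more. Relative to the offsets the medians were 0.43 and 0.40 for ISR genes and 0.36 and 0.25 for ER genes.

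ATF3, a transcription factor induced by many stresses, had the largest difference of the set. It was at 2.73 and 2.64 log2 TPM in stable SPRR1A and DsRed cells and at 6.06 and 6.19 in transient SPRR1A and GFP cells, so that both transient libraries stood far above both stable ones. This is a TPM of 6.62 and 6.22 against 66.7 and 73.2. The log2 differences were 3.56 between the controls, an 11.8-fold difference, and 3.33 between the SPRR1A libraries, a 10.1-fold difference. Counting ATF3 itself, only 2 of 12760 and 3 of 12786 entities had a difference this high. The gene lies on chromosome 1 of GRCh38 from 212565407 to 212620777.

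DDIT3, on chromosome 12 from 57516588 to 57520517, was at a TPM of 42.6 and 33.2 in stable SPRR1A and DsRed cells and at 125 and 126 in the transient libraries. It was higher by 1.93 between the controls and by 1.55 between the SPRR1A libraries. CEBPB, a C/EBP factor that ATF4 pairs with, was at 6.69 and 6.64 log2 TPM in stable SPRR1A and DsRed cells, at 6.72 in transient SPRR1A cells and at 7.08 in transient GFP cells, the highest of the 4. ATF4 itself differed by -0.13 and -0.04, or by -0.26 and 0.08 relative to the offsets, and its 4 values lay between 8.88 and 9.11. The 2 stable and the 2 transient values overlapped.

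Genes that limit the response or growth were also higher in both transient libraries than in both stable ones, as were 33.7% of all entities above 0. PPP1R15A (GADD34), the phosphatase subunit that restores eIF2, was at a TPM of 141 and 154 in stable SPRR1A and DsRed cells and at 283 and 293 in transient SPRR1A and GFP cells. Its differences, 0.93 for the controls and 1.01 for the SPRR1A libraries, lay on either side of 2-fold. TRIB3, a pseudokinase that inhibits ATF4 and CHOP, differed less, by 0.49 and 0.28. CHAC1 differed by 1.67 and 0.94. SESN2, an inhibitor of the growth kinase mTORC1, was at a TPM of 15.0 and 15.4 in stable SPRR1A and DsRed cells and at 34.3 and 37.2 in the transient ones, with differences of 1.27 and 1.20. DDIT4 (REDD1), another inhibitor of mTORC1, differed by 0.56 and 0.31 from a far higher level.

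The amino acid genes were divided. CTH, which makes cysteine from cystathionine, was at a TPM of 4.34 and 3.48 in stable SPRR1A and DsRed cells and at 10.9 and 11.5 in the transient ones, with differences of 1.73 and 1.33. The other synthesis genes differed less. CBS differed by 0.55 and 0.31, ASNS differed by 0.33 and 0.12, PHGDH by 0.07 and -0.17, PSAT1 by 0.01 and -0.35 and MTHFD2 by 0.14 and -0.30, and the median of the 6 synthesis genes was 0.23 and -0.03. Relative to the offsets PSAT1 was at -0.11 and -0.24. Among the transporters, SLC7A11, which imports cystine, differed by 0.95 and 0.47, while SLC3A2 differed by 0.31 and 0.18 and SLC7A5 by 0.11 and -0.10. VLDLR differed by 0.76 and 0.05, again with the transient GFP library as the highest of the 4.

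Among the ER genes, the 2 past 2-fold in both pairs were a co-chaperone and a degradation gene. DNAJB9 (ERdj4), a co-chaperone of HSPA5 that represses IRE1, was at a TPM of 7.49 and 6.52 in stable SPRR1A and DsRed cells and at 19.3 and 22.8 in transient SPRR1A and GFP cells, with differences of 1.81 and 1.36. DNAJC3 (p58IPK), a co-chaperone that inhibits PERK, differed by 0.50 and 0.14. HERPUD1, a membrane protein of the ER degradation complex, was at 52.0 and 48.1 in the stable and at 126 and 132 in the transient libraries, with differences of 1.46 and 1.28. HERPUD1 was also the 1 gene of the set with both an ER stress element and a C/EBP-ATF element in its promoter window. SEL1L and EDEM1 differed by 1.08 and 0.70 between the controls and by 0.44 and 0.15 between the SPRR1A libraries.

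HSPA5 was at a TPM of 442 and 409 in stable SPRR1A and DsRed cells and at 692 and 811 in transient SPRR1A and GFP cells. Its differences of 0.99 and 0.64 were the largest of the 4 chaperones, and after the offsets they were 0.86 and 0.76. HSP90B1 differed by 0.50 and 0.12, HYOU1 by 0.47 and 0.29 and CALR by 0.15 and -0.06. The disulphide isomerase PDIA4 differed by 0.50 and 0.15 and PDIA6 by 0.26 and 0.00. XBP1, whose spliced mRNA encodes the active factor, differed by 0.33 and 0.06, and SEC61B by 0.12 and 0.07.

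Several ER genes that are usually induced together with HSPA5 did not share its difference. SDF2L1 differed by -0.16 and 0.00, CRELD2 by -0.10 and -0.27 and MANF by -0.08 and -0.04. Relative to the offsets SDF2L1 was at -0.29 and 0.11, MANF at -0.20 and 0.08 and CRELD2 at -0.22 and -0.16, so that SDF2L1 and MANF turned positive in the SPRR1A pair. CRELD2 and MANF are small secreted proteins of ER stress, and SDF2L1 and CRELD2 carry an ER stress element in the window shown above. The 9 ER genes with such an element had differences from -0.16 to 1.46 between the controls and from -0.27 to 1.28 between the SPRR1A libraries. The 7 without one had -0.08 to 1.81 and -0.04 to 1.36, so the ranges overlapped nearly in full. The medians were 0.33 and 0.06 for the genes with an element and 0.50 and 0.15 for those without. This gap was not tested.

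**Figure D3:**
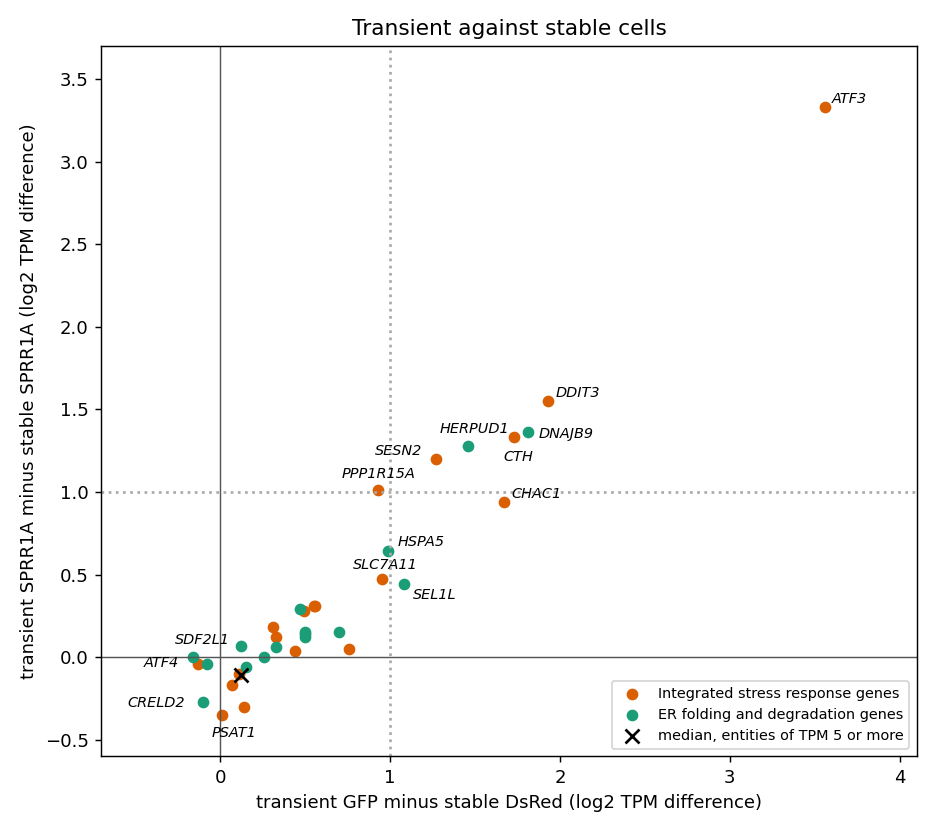
Log2 TPM difference between transient and stable cells for the controls (x axis) and for the SPRR1A libraries (y axis), 1 point per gene, orange for 19 ISR and green for 16 ER genes. The cross marks the medians of entities at TPM 5 or more (0.12 and -0.11), dotted lines mark 2-fold, and 6 genes lie past 2-fold on both axes, with ATF3 at 3.56 and 3.33.

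Other genes of the pathways, from lists written for this purpose, lay closer to the offsets as groups. Of 17 sensors and translation control genes, 16 were above 0, and their medians were 0.22 and -0.11 between transient and stable cells, near the offsets of 0.12 and -0.11. In this list 2 of the 16 were more than 2-fold higher in transient cells in the control pair, against 6.1% of all entities. In the SPRR1A pair 1 of the 16 was, against 2.19%, and 0 were more than 2-fold lower in either pair. With 16 genes, neither count stands clear of the background. ERN1, which encodes IRE1, was at a TPM of 2.73 and 1.64 in stable SPRR1A and DsRed cells and at 6.12 and 6.37 in the transient ones, with differences of 1.96 and 1.17. EIF2AK3, which encodes PERK, was at 7.37 and 6.57 against 14.3 and 14.4, with differences of 1.13 and 0.96. ATF6 differed by 0.53 and 0.13, and the RNA-activated kinase EIF2AK2, also known as an interferon-stimulated gene, by 0.52 and -0.03. The lowest values were those of EIF2B3, a subunit of the eIF2 exchange factor, at -0.51 and -0.54.

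Of 33 other ATF4-linked genes, among them 12 tRNA synthetases, 29 were above 0 in both libraries of each pair, with medians of 0.21 and -0.08. In each pair 2 of the 29 were more than 2-fold higher and 0 lower, against 6.1% and 2.19% of all entities higher. The count between the controls is near the background, and with 29 genes the count between the SPRR1A libraries does not stand clear of it either. VEGFA, an angiogenic growth factor, was at 5.17 and 5.10 log2 TPM in stable SPRR1A and DsRed cells and at 6.34 and 6.47 in the transient ones, with differences of 1.38 and 1.17. SLC38A2, an amino acid carrier induced by starvation, differed by 1.04 and 0.51, and among genes at TPM 5 or more on both sides the lowest differences were those of PYCR1 between the controls (-0.53) and LONP1 between the SPRR1A libraries (-0.41). Below that level SLC1A4, a neutral amino acid carrier, was lower still between the controls, at -0.90. NUPR1, a stress-induced nuclear protein at a TPM under 5 throughout, was the second gene past 2-fold between the SPRR1A libraries, at 1.07. Of 34 other ER genes, 33 and 32 were above 0, with medians of 0.25 and 0.01. Of these 1 was past 2-fold, HSPA13 with 1.10 in the control pair, against 6.1% of all entities higher. HSPA13 was at 0.47 in the SPRR1A pair, where 0 genes were past 2-fold, against 2.19%. Among genes at TPM 5 or more on both sides the lowest value in each pair was that of SPCS1, at -0.28 and -0.52. Below that level DERL3 was at -0.38 between the controls. KLHL24 of the ATF4-linked list and ERO1B of the ER list were listed at 0 in both stable libraries and fall outside these counts. In transient SPRR1A and GFP cells KLHL24 was at 1.43 and 1.46 log2 TPM and ERO1B at 1.28 and 1.34. Cytosolic heat shock genes, taken for comparison, had medians of 0.06 and -0.14, and 0 of 11 were past 2-fold in either pair. Beside 6.1% and 2.19% of all entities higher, a count of 0 of 11 is near the background.

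Between SPRR1A cells and their controls, 0 genes of these 4 lists were past 2-fold. Of all entities, 0.62% (stable) and 0.458% (transient) were, so that a count of 0 is near the background. The sensors had medians of 0.09 (stable) and -0.18 (transient), the other ATF4-linked genes 0.08 and -0.13, and the other ER genes 0.08 and -0.18. The offsets of the 2 models were 0.06 and -0.18. Relative to them the medians were 0.03 and 0.01 for the sensors, 0.02 and 0.05 for the other ATF4-linked genes and 0.02 and 0.00 for the other ER genes. Taking genes at TPM 5 or more on both sides, the highest of each list in the stable model were EIF2AK2 (0.28), NARS1, an asparagine tRNA synthetase (0.41), and HSPA13 (0.38), and the lowest were EIF2B4 (-0.16), SLC6A9 (-0.24) and SSR4 (-0.22). In the transient model, in the same order of lists, the highest were EIF2AK3 (-0.01), SLC6A9 (0.11) and SSR4 (-0.06), and the lowest were ATF6B (-0.29), SLC38A2 (-0.25) and KDELR3 (-0.41). ERN1 lay below that level and differed by 0.73 in the stable model, where 135 of 12738 entities were at least as high, and by -0.06 in the transient model. NUPR1, at a TPM of 2.42 or less in all 4 libraries, differed by -0.85 and 0.20. DERL3 was listed at 0 in stable SPRR1A and at 0.92 log2 TPM in stable DsRed cells, and differed by -0.13 in the transient model.

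**Figure D4:**
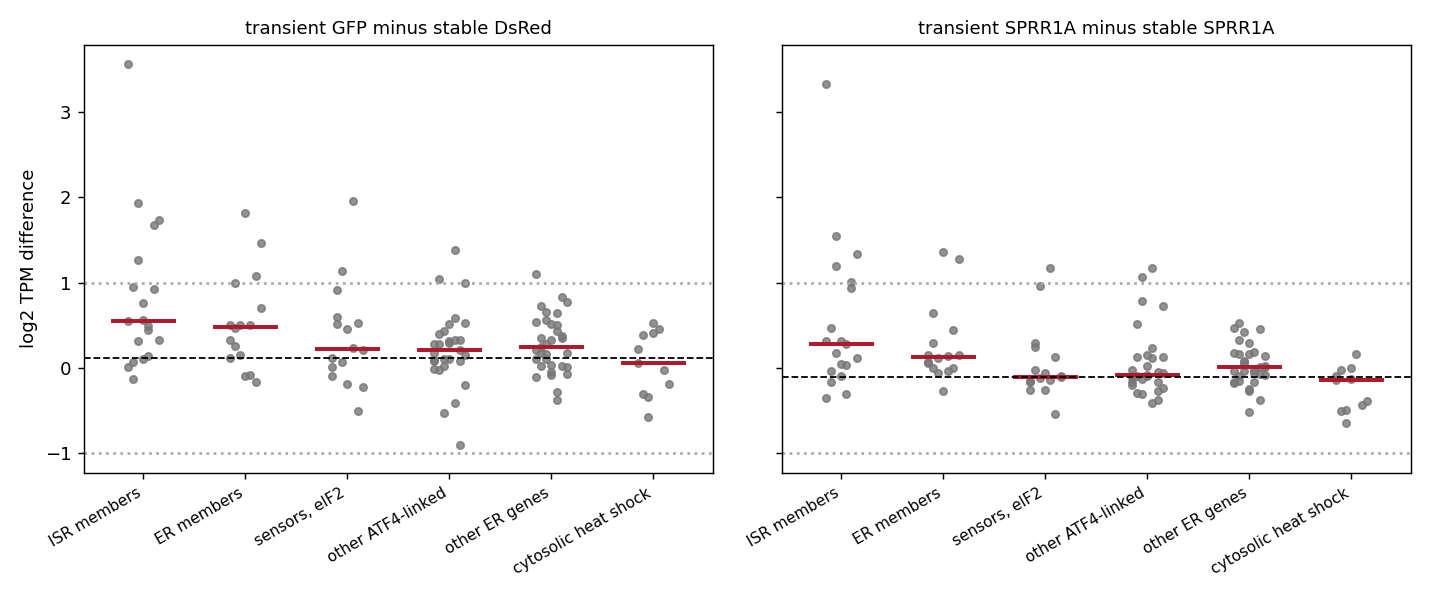
Log2 TPM difference between transient and stable cells (y axis) for the ISR and ER genes, 3 further pathway lists and heat shock genes, for the controls (left) and the SPRR1A libraries (right). The heat shock list is labelled cytosolic but includes the mitochondrial HSPD1 and HSPE1. Each point is a gene above 0 in both libraries, red bars are list medians, dashed lines the median of entities at TPM 5 or more and dotted lines 2-fold; the ISR medians are 0.55 and 0.28 and the heat shock medians 0.06 and -0.14.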

How the data were processed

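Total RNA of 4 PK-1 cultures was sequenced by the authors as paired-end stranded mRNA libraries, aligned with Strand NGS (default parameters, hg38 transcriptome) and normalized as TPM. The software version, the annotation release and the handling of reads shared between genes are not given in the sources used here. The deposited values are log2 TPM per gene, with 0 for a TPM of 1 or less, and depth in reads is unknown.

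Log2 differences were taken between deposited values for 4 comparisons. With 1 library per condition no test was made. Genes were counted past 2-fold, the rule of the study, and past 0.5 log2. Background shares used entities above 0 in both libraries, SPRR1A left out. Offsets were medians over entities at TPM 5 or more on both sides. Members, lists and the lower limit were chosen with earlier results of these data known. All 36 members, SPRR1A and, of the other lists, genes past 2-fold that reached TPM 5 on the higher side and the extremes among genes at TPM 5 or more on both sides were named. NUPR1, SLC1A4, DERL3, KLHL24, ERO1B, ATF6 and further values of ERN1 and EIF2AK2 were added after they were seen. The 12 tRNA synthetases were matched by Entrez Gene identifier. Calculations were tested on simulated data. Python 3.11.15, numpy 2.4.6, pandas 2.3.3 and matplotlib 3.10.9 were used. Protein sequences were not analysed here.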

Additional observations from a re-analysis of the deposited data

How the results depend on the processing

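No paired analysis was possible because every group was a lone library, and for the same reason no replicate could be left out. The 4 counts past 2-fold stayed within 1.5 times their value under log2(TPM + 1), log2(TPM + 0.1), a filter at TPM 5 on both sides, centring on the median, SPRR1A left out of the TPM total and, added after the data were seen, CBS summed with CBSL. Of 96 alternative values, 82 stayed within 1.5 times (counts) or within 0.1 log2 on the same side of 0 (medians). In the transient model VLDLR, the 1 gene past 0.5 log2, was lost (0 genes) under log2(TPM + 1), the TPM filter, centring and SPRR1A left out. There the ISR and ER medians were 0.05 and -0.01 after centring and 0.02 and -0.04 with SPRR1A left out, so that the ISR median changed sign. Between the controls centring gave 0.43 for ISR and 0.36 for ER genes. Between the SPRR1A libraries centring gave 0.40 and 0.25, and leaving SPRR1A out gave 0.43 and 0.28. Centring subtracts the offset by construction. After centring, 7 genes in place of 6 were more than 2-fold higher in both transient pairs, and both transient libraries lay above both stable ones for 26 genes, against 40.2% of entities. The filter at TPM 5 went the other way, with 7 in place of 8 genes past 2-fold between the controls. Between the SPRR1A libraries it left 6 in place of 7. In both pairs it removed CTH, at a TPM of 3.48 in stable DsRed and 4.34 in stable SPRR1A cells. Low genes such as CTH and VLDLR lie close to the floor, where differences are the least precise.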

Other observations

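RefSeq places 5 microRNAs of the tables inside genes of the 2 sets, and 2 of them were above 0 in some library. MIR3189, on chromosome 19 from 18386562 to 18386634 within GDF15, was listed at 0 in both stable libraries and at 0.20 and 0.82 log2 TPM in transient SPRR1A and transient GFP cells, while GDF15 itself was listed at 0 throughout. MIR616, on chromosome 12 from 57519163 to 57519259 within DDIT3, was at 0.49 and 0.65 in stable SPRR1A and DsRed cells and at 0.44 and 1.07 in transient SPRR1A and GFP cells. Reads of a microRNA precursor and of the gene around it cannot be told apart in an mRNA library, and all of these values lie near the floor.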
